A study of Rattus norvegicus with 4 samples.

Results

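Cells without T cell receptor transcripts were compared between a naive rat liver and a liver kept in the cold, in Kupffer, natural killer (NK), dendritic, hepatocyte and B cell groups. Single-cell RNA sequencing gave 1 library of each of 4 conditions of Lewis rat liver. The naive liver was untreated, the CS liver was stored for 4 h at 4 °C, and both perfused livers were kept for 4 h at 37 °C on a normothermic circuit, NEVLP2 without added cytokines and NEVLPcty with interleukin-10 and TGF-β. The reading of NEVLPcty rests on the series' design text, and the digit in NEVLP2 is not explained there. Perfusion fluid, as labelled, was William's E medium with leukoreduced Lewis red cells, human albumin, insulin, hydrocortisone, papaverine and heparin. The age and sex of the animals and the way the cells were freed from the tissue are not given in the sources used here. With 1 library per condition, storage, animal and preparation cannot be told apart, no difference was tested between conditions, and every interval covers counting error only.

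A barcode was kept if it had at least 200 genes, at least 500 UMIs (unique molecular identifiers, each counted as 1 captured transcript) and at most 20% mitochondrial UMIs. This kept 3300 of 3920 barcodes of the naive library and 10798 of 11200 of the CS library. Barcodes with a UMI of Cd3e, Cd3d or Cd3g were then set aside, 452 naive and 429 CS. The others were grouped by 1 UMI of Clec4f (Kupffer), Cd79a (B), Ncr1 (NK) or Flt3 (dendritic), or by at least 3 of Serpinc1, Tdo2, Gc and Cyp2c7 (hepatocyte), and 27 naive and 354 CS barcodes positive for more than 1 group were left out. The groups held 5161 of the 14098 kept barcodes of both libraries, 1325 naive and 3836 CS, out of 37529 deposited in the series. Kupffer barcodes numbered 138 naive and 2703 CS, NK barcodes 158 and 238, dendritic barcodes 98 and 163, and hepatocyte barcodes 928 and 731. Median depth was 9323 naive and 6373 CS UMIs in Kupffer barcodes, 8773 and 4265.5 in NK, 25134 and 18532 in dendritic, and 2490.5 and 2174 in hepatocyte barcodes. Near the hepatocyte threshold, 416 naive and 888 CS barcodes had 2 of the 4 genes and 419 and 468 had 3. Of the kept barcodes, 1496 naive and 6179 CS fell in no group. The 2 libraries had 11 barcodes in common, 0.281% of the naive ones.

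Kupffer cells are the macrophages of the liver sinusoid, which clear particles and microbes from portal blood and are a main hepatic source of cytokines. Liver NK cells kill stressed or infected cells and release interferon-γ, dendritic cells take up antigen and show it to T cells, and hepatocytes make most plasma proteins and run glucose, sterol and bile acid metabolism. Cold storage slows metabolism in a donor organ without blood flow, while normothermic perfusion keeps it metabolically active.

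The labels of the cells were checked against marker genes that the rule did not use. Summed Kupffer markers (Vsig4, Marco, Cd163, Cd5l, C1qa, C1qb and Csf1r) stood at 26100 CPM (UMIs of a gene scaled to a fixed total of UMIs of the group, as counts per 1e6) in naive and 26000 in CS Kupffer barcodes. NK markers such as Nkg7, Prf1 and Gzma summed to 15400 and 18800 CPM in NK barcodes, and hepatocyte markers such as Alb and Ttr to 85800 and 64600 CPM in hepatocyte barcodes. Conventional dendritic markers (Clec10a, Sirpa and Irf4) summed to 585 and 480 CPM in the dendritic group, and plasmacytoid markers (Siglech, Tcf4 and Runx2) to 213 and 332 CPM. The plasmacytoid list also summed to 594 and 1280 CPM in barcodes with Cd3 transcripts, so it does not mark plasmacytoid cells alone. A neutrophil or monocyte list summed to 3250 and 2560 CPM in the dendritic group, above the dendritic lists, and its part in the dendritic results was not tested. Cd79a appears in these files only under the symbol Cd79al, which marked 3 naive and 1 CS barcodes, so the B group of the rule could not be compared. In its place, a B set was added after the data were seen: unassigned barcodes with at least 3 of Cd79b, Ms4a1, Pax5, Ebf1 and Ighm, 109 naive and 246 CS.

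The Kupffer label was contradicted in much of the CS library. Of CS Kupffer barcodes with 1 or 2 Clec4f UMIs, 1103 of 1628 (67.8%, exact 95% interval 65.4% to 70.0%) also had at least 2 of 4 sinusoidal endothelial genes (Stab2, Kdr, Ptprb and Clec4g). None of the 45 naive Kupffer barcodes with 1 or 2 Clec4f UMIs did, and 3 counts of that total, the limit used here for a count of 0, would be a share of 6.67% (exact upper bound 7.87%). In all, 5281 kept CS barcodes and 39 naive ones carried at least 2 of the 4 endothelial genes. A second endothelial list (Gpr182, Oit3, Eng, Egfl7 and Aqp1) summed to 21.7 CPM in naive and 1880 CPM in CS Kupffer barcodes, the latter 29.4% of its level in CS endothelial barcodes. The same sum was 19.5 naive and 924 CS CPM in hepatocyte barcodes, 4.27 and 715 in NK, and 7.47 and 124 in dendritic. Endothelial RNA was therefore higher in every CS group, and its part in other genes of the rule groups was not tested.

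A restricted set, added after this was seen, kept barcodes with fewer than 2 of the 4 endothelial genes and at least 2 markers of their own type. It held 119 naive and 1115 CS Kupffer barcodes, 153 and 206 NK, 96 and 141 dendritic, 927 and 673 hepatocyte, and 109 and 229 B barcodes. The second endothelial list then summed to 86.6 CPM in CS Kupffer, 129 in NK, 26.7 in dendritic, 200 in hepatocyte and 80.1 in B barcodes. A further Kupffer set of 70 naive and 871 CS restricted barcodes had at least 6 Clec4f UMIs. Results below are for the restricted set unless the rule set is named. Values are summed UMIs per group and library, in which fewer cells with a transcript and less of it per cell cannot be told apart.

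**Figure D1:**
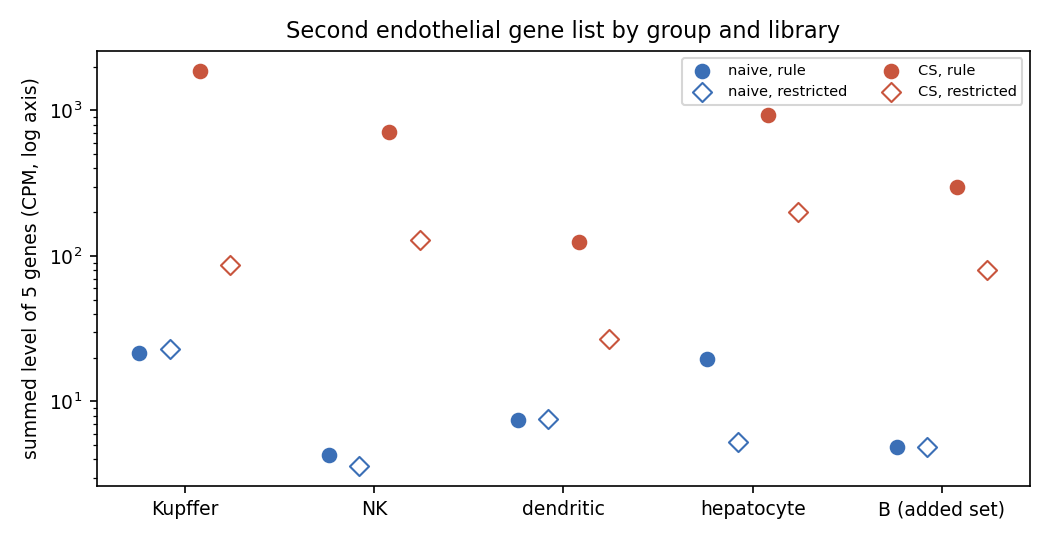
Summed CPM of 5 endothelial genes (log axis) in each cell group, naive in blue and CS in red, by the rule (filled circles) and in the restricted set (open diamonds). CS Kupffer barcodes lay at 1880 CPM by the rule and 86.6 CPM in the restricted set, and every CS symbol lay above the naive symbols of its group.

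How much of each profile differed depended on the set. A gene was measured in a group if at least 10 UMIs were expected in the smaller library, and a difference was counted from 2-fold upward. By the rule, 15.4% of 8364 measured genes were at least 2-fold higher in CS Kupffer barcodes and 3.01% lower. The shares were 11.2% higher and 2.06% lower of 7894 genes in NK, 4.48% and 2.98% of 8619 in dendritic, and 27.2% and 4.0% of 7243 in hepatocyte barcodes. In the restricted set they were 3.35% higher and 2.39% lower of 7529 genes in Kupffer, 5.8% and 1.96% of 7193 in NK, 3.01% and 3.14% of 8513 in dendritic, 10.6% and 4.64% of 5989 in hepatocyte, and 3.38% and 3.38% of 6095 in B barcodes. The median log2 ratio over all measured genes was 0.11 in Kupffer, 0.14 in NK, 0.01 in dendritic, 0.26 in hepatocyte and 0.04 in B barcodes. Centring each group on its median moved the share of higher genes among all past 2-fold from 58.3% to 46.6% in Kupffer, from 74.7% to 60.2% in NK and from 69.5% to 46.3% in hepatocyte barcodes, and from 48.9% to 48.0% in dendritic ones. By the rule, the same shares moved from 83.7% to 68.5%, from 84.5% to 71.9%, from 87.2% to 63.9% and from 60.0% to 57.1%.

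Genes higher in CS in all 4 groups mostly had a higher CS level in endothelial barcodes than in any of the groups. By the rule, 114 of 5808 genes measured in all 4 groups (1.96%) were at least 2-fold higher in every group, and for 109 of them the CS endothelial barcodes had a higher level than any of the groups. Of the 114, 0 had an endothelial level at least 5 times that of every group. How many of all 5808 genes were higher in endothelial barcodes than in any group was not counted. Sparc, a matrix-binding glycoprotein of vessel walls, led the ranking of the 114, with 5.11 naive and 610 CS CPM in Kupffer barcodes. In the restricted set 17 of 4608 genes (0.369%) were shared, all of them also shared by the rule, and 14 still had a higher level in endothelial barcodes than in any group. For 12 of the 17 that level was at least 5 times that of every group. Among the 14 were Kdr, the main VEGF receptor of endothelium, and Igfbp7, a secreted vascular protein. Kdr is also 1 of the 4 genes used for the restriction, which therefore affects its level there. Kdr was at 1.39 naive and 40.5 CS CPM in Kupffer, 0 and 62.2 in NK, 60.4 and 153 in dendritic, and 1.55 and 96.6 in hepatocyte barcodes. In naive dendritic barcodes the other 3 of those 4 genes had no UMI, so Kdr there came without them. Igfbp7 was at 0 naive and 37.8 CS CPM in Kupffer, 0 and 33.6 in NK, 0.754 and 11.5 in dendritic, and 0.31 and 50.3 in hepatocyte barcodes.

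The 3 shared genes whose level in endothelial barcodes did not exceed the groups were LOC108351137, LOC100360491 and Rps18l1, which carry locus or copy symbols. LOC108351137 was at 11.8 naive and 98.8 CS CPM in Kupffer, 8.67 and 77.4 in NK, 12.4 and 51.4 in dendritic, and 30.1 and 166 in hepatocyte barcodes. Ddit4, an inhibitor of mTORC1 induced by stress and glucocorticoids, belonged to the 17 as well, with 510 naive and 132 CS CPM in endothelial barcodes. Its levels were 6.95 naive and 36.4 CS CPM in Kupffer barcodes, a 5.24-fold difference (95% interval 2.83 to 11.0). It stood at 35.4 and 85.6 CPM in NK (2.42-fold, 1.68 to 3.51), 27.9 and 104 in dendritic (3.72-fold, 2.87 to 4.86), and 4.65 and 31.8 in hepatocyte barcodes (6.84-fold, 3.81 to 13). In Kupffer barcodes with at least 6 Clec4f UMIs, Ddit4 was at 8.58 naive and 28.3 CS CPM, 3.3-fold apart. Its perfused levels were 37.7 and 35.5 CPM in Kupffer and 94.3 and 142 CPM in hepatocyte barcodes, in NEVLP2 and NEVLPcty.

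Genes lower in CS in all 4 groups included ribosomal proteins and numbered loci. There were 26 of 4608 (0.564%) in the restricted set and 28 (0.482%) by the rule, with 23 in both. In the restricted set 6 of the 26 were ribosomal protein symbols, of 71 such symbols measured in all groups, and 12 had numbered locus symbols, which made up 4.71% of the genes measured. Of the 24 that were measured in the B set, 19 were at least 2-fold lower there too.

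Rpl30l1, a ribosomal protein L30 copy, showed the widest gap. It was at 37.5 naive and 0.344 CS CPM in Kupffer, 73.0 and 1.02 in NK, 53.6 and 0.347 in dendritic, and 99.2 and 0.755 in B barcodes. In hepatocytes it was at 18.6 naive CPM and had no CS UMI, at least 10.7-fold lower against a floor of 3 counts per library. Its perfused levels were at most 0.462 CPM, so the naive library was the only one with more than traces of this symbol.

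Rpl39, which lines the ribosome's exit tunnel, was at 563 naive and 182 CS CPM in Kupffer, 758 and 176 in NK, 932 and 325 in dendritic, and 215 and 81.6 in hepatocyte barcodes. Rpl26, another protein of the large subunit, was 2.69-fold lower in CS Kupffer barcodes (1900 and 706 CPM) and 2.56-fold lower in hepatocytes (880 and 344 CPM). Mrpl33, of the mitochondrial ribosome, was at 139 and 37.7 CPM in NK and 147 and 54.4 CPM in hepatocytes. Tmem258b, a copy of an oligosaccharyltransferase subunit gene, was at 73.6 and 12.2 CPM in Kupffer and 92.8 and 20.8 in dendritic barcodes. Mt-nd3, a complex I subunit encoded in the mitochondrion, was at 297 and 72.1 CPM in Kupffer, 390 and 135 in NK, 346 and 126 in dendritic, and 300 and 30.7 in hepatocyte barcodes. The perfused libraries had Rpl26 at 524 and 879 CPM and Rpl39 at 136 and 256 CPM in Kupffer barcodes, so for these 2 genes naive again stood highest of the 4 libraries. Ribosomal protein genes have many near-identical copies, and how reads were divided among them was not stated. The ribosomal list had medians of -0.15 in Kupffer, -0.28 in NK, -0.24 in dendritic, -0.10 in hepatocyte and -0.12 in B barcodes, with 9 of 71, 8 of 71, 11 of 73, 6 of 71 and 6 of 70 members at least 2-fold lower. In the same order, 2.39%, 1.96%, 3.14%, 4.64% and 3.38% of all measured genes were lower.

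**Figure D2:**
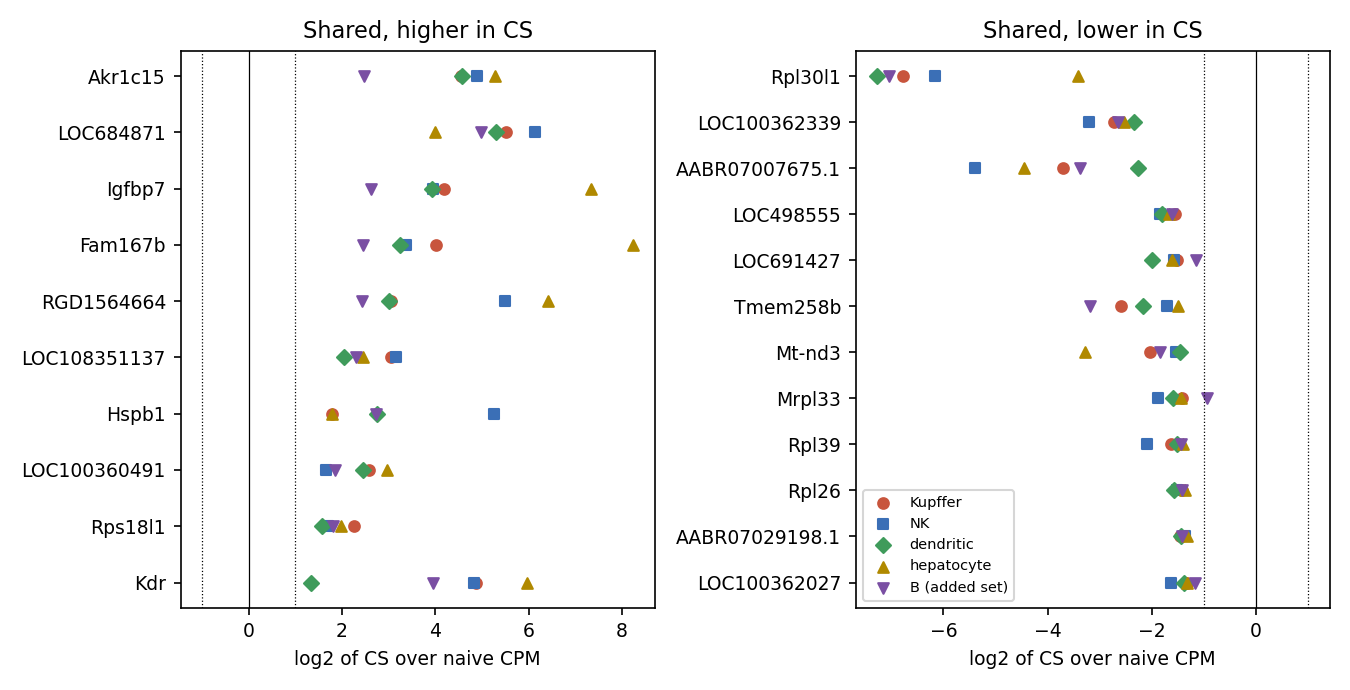
Log2 of CS over naive CPM in 4 cell groups and the added B set, for shared genes named by rank, higher in CS on the left and lower on the right, with dotted lines at 2-fold and a library at 0 set to 3 counts. Rpl30l1 lay farthest to the left, and Mrpl33 in B barcodes was the only named lower point inside the 2-fold line.

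Few genes stood apart in 1 group. A gene was counted here if it was at least 4-fold different in that group, with the nearest interval bound past 2-fold, and within 2-fold in every other measured group. It also had to be measured in at least 2 other groups, with an interval that overlapped none of theirs. The difference between groups was not tested. In the restricted set 5 genes were so counted as higher and 1 as lower in Kupffer, 14 higher and 0 lower in NK, 0 in dendritic, and 44 higher and 22 lower in hepatocyte barcodes. By the rule the counts were 11 and 2, 11 and 0, 1 and 0, and 157 and 19. Further filters were applied together to the restricted counts. A gene needed at least 5% of its highest level in any other cell set and a UMI in at least 10 barcodes. At most 20% of its UMIs could come from 1 barcode. How many genes each filter removed was not counted. These filters left 3 higher and 1 lower in Kupffer, 2 higher in NK, and 11 higher and 15 lower in hepatocyte barcodes. The named ones are Cdkn1a, Itgb7, Ahnak and Ccl4 in Kupffer, and Zfhx3 and Sh3bp5 in NK barcodes. In hepatocyte barcodes they are Slc25a4, RT1-M3-1, Xiap, Tagln2, Slc25a25 and 5 mitotic genes. All but RT1-M3-1 are described with their group. Cdkn1a, Itgb7 and Ahnak were not measured in Kupffer barcodes with at least 6 Clec4f UMIs.

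Kupffer barcodes from the cold-stored liver had lower inflammatory chemokine and MHC class II transcripts. Of 21 measured members of a list of NF-κB targets, cytokines and chemokines, 8 were at least 2-fold lower and 1 higher, with a median log2 ratio of -0.58. Among all measured Kupffer genes 2.39% were lower and 3.35% higher, with a median of 0.11. Il6, the acute-phase cytokine, was at 28.5 CPM in naive (41 UMIs in 19 barcodes) and 0.138 CPM in CS (2 UMIs in 1 barcode), a 207-fold difference (53.7 to 1770). Its level was 127 CPM in NEVLP2 and 2.17 CPM in NEVLPcty. Ccl4, a chemokine for monocytes and lymphocytes, was at 2510 CPM in naive and 211 in CS, 11.9-fold lower (11.3 to 12.5), with 17800 in NEVLP2 and 2970 in NEVLPcty. Ccl3, its close relative, was at 1890, 220, 7910 and 2640 CPM in the same order, 8.6-fold lower in CS. CS was the lowest of the 4 libraries for Il6, Ccl4 and Ccl3.

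Ccl7, a monocyte attractant, was at 77.8 CPM in naive and 5.99 in CS (13-fold, 9.73 to 17.4), and Ccl2 was at 426 and 89.5 CPM. The neutrophil attractants Cxcl1 and Cxcl2 were at 357 and 142 CPM and at 1090 and 407 CPM. Gdf15, a stress-induced member of the TGF-β family, was at 183 and 23.9 CPM, 7.68-fold lower (6.52 to 9.04). Other members of the list were closer: Il1b was at 593 naive and 440 CS CPM, and Nfkbia, the NF-κB inhibitor, at 789 and 748. In barcodes with at least 6 Clec4f UMIs, Ccl4 was at 1510 and 223 CPM (6.76-fold), Ccl3 at 1530 and 218 (7.01-fold) and Ccl2 at 411 and 46.1 (8.91-fold), and the list median was -0.74 with 8 of 20 members lower. Among the 7026 genes measured in the same barcodes 2.72% were lower. By the rule, Ccl4 was 15.3-fold and Il6 212-fold lower.

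MHC class II genes, which present antigen to CD4+ T cells, were at least 2-fold lower in CS Kupffer barcodes for 7 of 8 measured members. This compares with 2.39% of all measured genes, and the class II median was -1.24. The median was -1.62 by the rule and -1.74 with at least 6 Clec4f UMIs, where 7 of 7 were lower against 2.72% of all 7026 measured genes (2.62% were higher). Cd74, the invariant chain, was at 20500 naive and 8860 CS CPM, 2.32-fold lower (2.29 to 2.35), and at 14300 and 21200 CPM in NEVLP2 and NEVLPcty. The α chain RT1-Da was at 12200 and 5200 CPM and the β chain RT1-Bb at 10200 and 3890. Ciita, the transactivator of class II genes, was at 34.7 and 12.7 CPM (2.74-fold, 1.97 to 3.77). RT1-DOb was at 12.5 and 10.3 CPM, within 2-fold. In dendritic barcodes no class II member passed 2-fold, with Cd74 at 32300 naive and 38600 CS CPM and a median of 0.08, and the median in B barcodes was 0.27.

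Kupffer identity genes differed less than these. Against 3.35% higher and 2.39% lower over all measured genes, 1 of 18 measured members of that list passed 2-fold, with a median of 0.36. This was Vsig4, a complement receptor of resident Kupffer cells, at 1110 naive and 2340 CS CPM (2.1-fold). C1qa was at 12300 and 16000 CPM, Cd5l at 3430 and 4430 and Axl, a receptor for dying cells, at 577 and 541. The neutrophil and monocyte list summed to 1340 naive and 899 CS CPM in Kupffer barcodes, and its part in the chemokine and class II results was not tested. Itgax, a myeloid integrin, was at 74.3 and 19.5 CPM.

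The number of genes higher in CS Kupffer barcodes moved more with the choice of barcodes, from 1290 by the rule to 252 in the restricted set, while the number of lower genes went from 252 to 180. Nr4a3, a nuclear receptor of the immediate early class, had no naive UMI and 14.9 CS CPM, at least 7.13-fold higher, with 61.5 and 47.1 CPM in NEVLP2 and NEVLPcty. The immediate early list as a whole had 3 of 20 members higher and 4 lower in Kupffer barcodes, against 3.35% and 2.39% of all measured genes. The list had a median of -0.49 there. Its median was -0.59 with at least 6 Clec4f UMIs (1 of 19 higher, 5 lower) but 0.74 by the rule (8 of 21 higher, 0 lower). Cdkn1a, the p21 cell cycle inhibitor, was at 1.39 CPM in naive (2 UMIs) and 19.2 in CS (13.8-fold, 3.79 to 115). Ahnak was at 4.86 and 26.1 CPM, and Itgb7, an integrin β chain of lymphocytes and dendritic cells, at 2.78 and 21.3. Fn1, fibronectin, was at 2.78 and 62.2 CPM with its CS UMIs in 49 barcodes, but at 2.02-fold by the rule. Slpi, a secreted protease inhibitor, was at 108 and 692 CPM in the restricted set, at 347 and 519 by the rule, and at 45.5 and 45.6 with at least 6 Clec4f UMIs. Ighm, the B cell heavy chain, was at 7.64 naive and 442 CS CPM in the same restricted Kupffer barcodes. Cdkn1a, Ahnak, Itgb7 and Fn1 were not measured in the set with at least 6 Clec4f UMIs. Under 10 UMIs of each were expected there in the smaller library. That set held 12632925 of the 14529126 UMIs of restricted CS Kupffer barcodes. Missing this minimum there means that the mean of the naive and CS levels was lower than in the restricted set for each gene. Whether these genes differed in that set is not known.

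**Figure D3:**
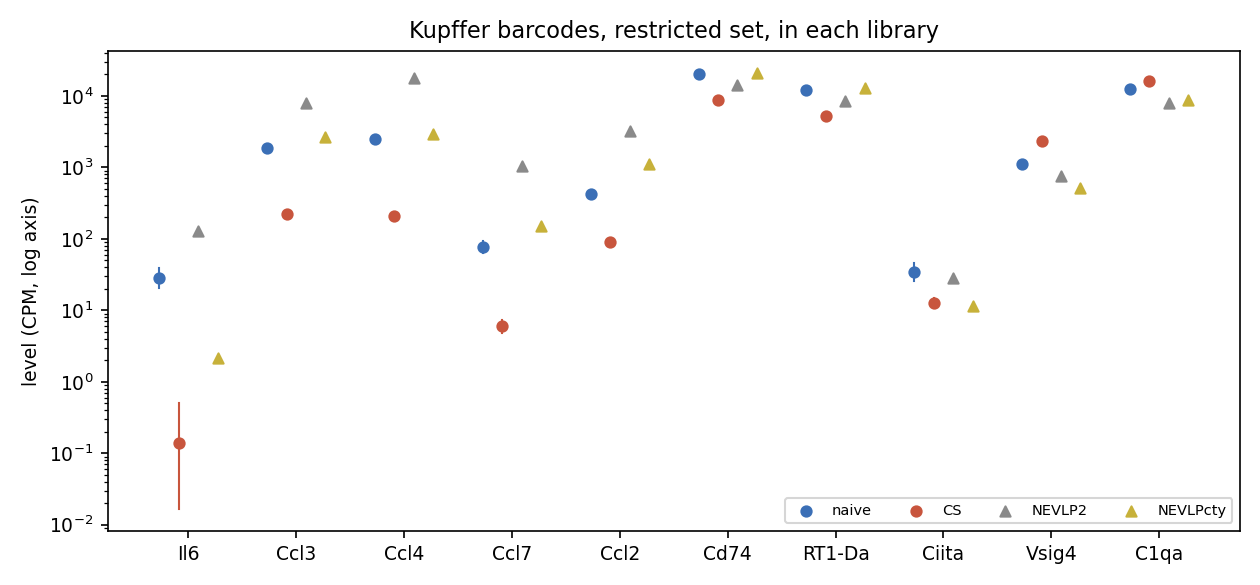
CPM (log axis) of 10 genes in restricted Kupffer barcodes of each of the 4 libraries, with exact Poisson intervals for naive and CS. CS was the lowest for Il6, Ccl3, Ccl4, Ccl7 and Ccl2, and Vsig4 and C1qa were highest in CS.

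NK barcodes kept their effector transcripts within 2-fold with 1 exception. Of 19 measured members of the effector list, 0 were at least 2-fold higher and 1 lower, with a median of 0.02. Among all measured NK genes 5.8% were higher and 1.96% lower. Gzma, a granule protease, was at 5440 naive and 8280 CS CPM, Gzmb at 1060 and 1630, and Prf1, the pore-forming perforin, at 3200 and 5330. Nkg7 was at 3960 and 3810 CPM, Ccl5 at 39500 and 45300 and Xcl1 at 2170 and 1460. The exception was Ifng, interferon-γ, at 52.0 CPM in naive and 6.11 in CS, 8.51-fold lower (3.72 to 23.9). Its perfused levels were 10.3 and 14.5 CPM, so all 3 stored or perfused libraries were below naive. Ccl1, a chemokine of activated lymphocytes, was at 382 and 26.5 CPM (14.4-fold), with 1310 and 863 CPM in the perfused libraries, where it was above naive. Cxcr4, a homing receptor, was at 148 and 49.9 CPM (2.97-fold).

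Ifi27, an interferon-induced gene, was higher in CS NK barcodes, at 48.4 naive and 242 CS CPM (4.99-fold, 3.79 to 6.65). It was 11.2-fold higher by the rule, and CS endothelial barcodes had 3850 CPM of it. Zfhx3, a transcription factor, was at 7.22 and 37.7 CPM and Sh3bp5, an adaptor of the JNK pathway, at 2.89 and 19.4. Hist1h1e, a linker histone, was at 174 and 549 CPM. Hepatocyte markers summed to 195 naive and 558 CS CPM in NK barcodes, where 10 of 12 measured plasma protein genes were at least 2-fold higher. Ttr, for example, was at 87.4 and 331 CPM there, a small fraction of its hepatocyte level of 35500 and 32800 CPM. Lysosomal genes had a median of 0.61 in NK barcodes, with 7 of 23 higher, against 0.14 and 5.8% over all measured genes. Of the 23, 7 were below 5% of their level in another cell set of the same library. Summed Kupffer markers were at 31.8 naive and 318 CS CPM in the same NK barcodes, where 7 of 7 measured Kupffer identity genes were at least 2-fold higher, and their part in the lysosomal values was not tested.

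The interferon-response list had a median above that of all genes in 4 of the 5 groups and below it in the B set. It had a median log2 ratio of 0.36 in Kupffer (4 of 25 at least 2-fold higher), 0.87 in NK (7 of 21), 0.53 in dendritic (7 of 23) and 1.19 in hepatocyte barcodes (12 of 17), against -0.07 in B barcodes (2 of 22 higher and 2 lower). Of the measured members, 0 in Kupffer, 1 in NK, 3 in dendritic, 4 in hepatocyte and 2 in B barcodes were below 5% of their level in another cell set. In the same restricted hepatocyte barcodes the second endothelial list summed to 5.27 naive and 200 CS CPM and the Kupffer markers to 58.9 and 367, and their part in the interferon values was not tested. Of all measured genes, 3.35% were at least 2-fold higher in Kupffer, 5.8% in NK, 3.01% in dendritic and 10.6% in hepatocyte barcodes. In B barcodes 3.38% were higher and 3.38% lower. The all-gene medians were 0.11 in Kupffer, 0.14 in NK, 0.01 in dendritic, 0.26 in hepatocyte and 0.04 in B barcodes. By the rule the hepatocyte median of the list was 2.07, with 18 of 21 higher, against 0.5 and 27.2% over all measured genes.

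The members of this list differed from each other between groups. Irf7, the factor that amplifies type I interferon production, was at 47.2 naive and 130 CS CPM in dendritic barcodes (2.75-fold, 2.24 to 3.40) and at 9.3 and 20.8 CPM in hepatocytes (2.24-fold, 1.34 to 3.76). It was at 240 and 348 CPM in Kupffer, 50.6 and 62.2 in NK and 93.1 and 110 in B barcodes, below 2-fold in these 3 groups. Oas1a, an RNA-sensing synthetase, was at 8.3 and 19.8 CPM in dendritic and 9.61 and 20.8 in hepatocyte barcodes. Ifit3, an antiviral effector, was at 92.4 and 208 CPM in Kupffer and 7.95 and 25.5 in NK barcodes but at 23.0 and 5.9 CPM in dendritic barcodes, where it was 3.9-fold lower (2.25 to 7.12). Ifih1, the RNA sensor MDA5, was at 6.2 and 15.6 CPM in hepatocytes (2.52-fold, 1.36 to 4.74) and 16.7 and 20 CPM in Kupffer barcodes. Isg15, a ubiquitin-like modifier, was at 12.7 and 55.5 CPM in hepatocytes, 85.3 and 176 in NK, 33.2 and 76.4 in dendritic and 79.6 and 77.0 in B barcodes. In the perfused libraries Isg15 was at 220 and 22.9 CPM in hepatocytes and at 911 and 103 CPM in Kupffer barcodes, higher in NEVLP2 than in CS.

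**Figure D4:**
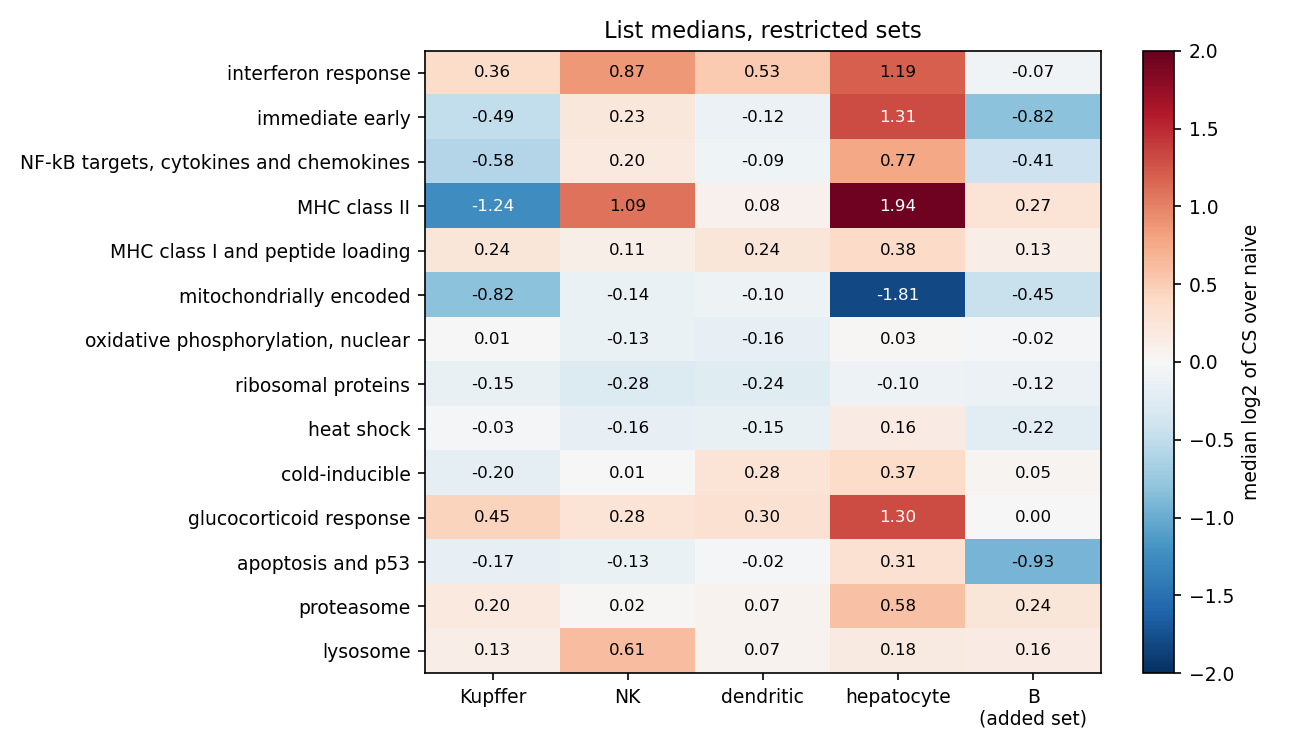
Median log2 of CS over naive CPM for 14 gene lists (rows) in 5 groups of restricted barcodes (columns), red for higher in CS. The interferon row is above 0 in 4 groups and -0.07 in B, and the mitochondrially encoded row reaches -1.81 in hepatocytes, while the MHC class II values of NK and hepatocyte barcodes rest on genes under 5% of their level in another cell set.

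In dendritic barcodes the named genes higher in CS were led by unannotated loci, Errfi1 and Ptcra. Ptcra, a receptor chain also made by plasmacytoid dendritic cells, was at 2.26 naive and 17.0 CS CPM (7.51-fold, 3.22 to 21.5), with 61.5 and 7.83 CPM in the perfused libraries. Errfi1, a feedback inhibitor of EGF receptor signalling, was at 21.1 and 93.7 CPM (4.44-fold, 3.32 to 6.03). AABR07035539.1 was at 0.377 CPM in naive (1 UMI) and 40.6 in CS (108-fold, 18.9 to 4290), with 39.7 CS CPM in NK, 53.6 in B and 21.1 in Kupffer barcodes. Its perfused levels in dendritic barcodes were 45.8 and 45.6 CPM, so the naive library alone was low. Clec4a, an inhibitory lectin receptor, was at 15.1 and 1.74 CPM (8.69-fold lower, 3.43 to 28.2), and Cxcl9 was at 92.8 and 12.5 CPM, though only 2.09-fold apart by the rule. The subset and maturation list had a median of 0.36, with 1 of 15 members at least 2-fold higher and 0 lower. The shares of all measured dendritic genes were 3.01% higher and 3.14% lower. The member past 2-fold was Ccl22, a chemokine of mature dendritic cells, at 7.54 and 27.4 CPM (3.63-fold). Xcr1, of cross-presenting cells, was at 128 and 243 CPM and Siglech, of plasmacytoid cells, at 117 and 171, both within 2-fold. Shares of these subsets were not separated, so level and subset composition cannot be told apart.

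Hepatocyte barcodes from the cold-stored liver had lower mitochondrially encoded transcripts. All 13 measured were at least 2-fold lower, against 4.64% of all measured genes, with a list median of -1.81 (-1.62 by the rule). Mt-co1, a cytochrome oxidase subunit, was at 8160 naive and 2390 CS CPM (3.42-fold, 3.31 to 3.54), with 3310 and 741 CPM in the perfused libraries. Mt-atp6, of ATP synthase, was at 7530 and 2140 CPM and Mt-atp8 at 138 and 12.2. The nuclear-encoded members of the same respiratory complexes had a median of 0.03, with 2 of 82 lower and 0 higher. The median mitochondrial share per barcode was 3.88% naive and 0.94% CS by the rule. In the other groups the mitochondrial medians were -0.82 in Kupffer, -0.14 in NK, -0.10 in dendritic and -0.45 in B barcodes, with Mt-co1 at 8910 and 9810 CPM in NK and 7630 and 7400 CPM in dendritic barcodes. With barcodes held to at most 10% mitochondrial UMIs, the rule median was -1.50.

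The lowest named genes in CS hepatocytes were Spink1 and Cish. Cish, a STAT5-induced feedback inhibitor, was at 27.6 CPM in naive with no CS UMI, at least 15.9-fold lower, and at 91.8 and 62.5 CPM in the perfused libraries. By the rule it had 3.81 CPM in CS. Socs2, of the same family, was at 66.7 and 8.68 CPM (7.68-fold, 4.55 to 14.0), and at 120 and 53.1 CPM in the perfused libraries. Prlr, the prolactin receptor, was at 16.1 CPM in naive with no CS UMI, at least 9.29-fold lower. Igf1, the endocrine product of growth hormone signalling, was at 1560 and 1610 CPM. Spink1, a trypsin inhibitor, was at 429 and 11.6 CPM (37.1-fold, 23.9 to 60.9), with 31.0 and 10.4 CPM in the perfused libraries. Mt1 and Mt2A, the metallothioneins, were at 1730 and 396 CPM and at 212 and 38.2 CPM, while perfused Mt1 stood at 4500 and 2880 CPM.

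Plasma protein genes had a median of -0.12, with 4 of 21 at least 2-fold lower and 0 higher, against 4.64% lower over all measured genes. Those 4 were Apob at 346 naive and 98.9 CS CPM, C3 at 849 and 222, Itih4 at 601 and 231 and Fga at 515 and 221. Alb was at 39300 and 29100 CPM and Ttr at 35500 and 32800. Metabolic genes tended the other way, with 7 of 26 higher, 2 lower and a median of 0.61 against 0.26 over all genes. Among all measured hepatocyte genes 10.6% were higher and 4.64% lower. Tat, tyrosine aminotransferase, was at 86.5 and 315 CPM (3.64-fold, 3.15 to 4.23), Sds, serine dehydratase, at 20.8 and 74.6, and G6pc, the last step of glucose release, at 55.8 and 139. Cyp7a1, the rate-limiting enzyme of bile acid synthesis, was at 4.65 and 23.1 CPM (4.98-fold, 2.69 to 9.70). The sterol genes Hmgcs1, Sqle and Insig1 were at 199 and 531, 11.5 and 30.7, and 74.1 and 172 CPM. Cpt1a, of fatty acid import into mitochondria, was at 25.7 and 10.4 CPM and Scd, a desaturase, at 94.0 and 46.3.

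Nr0b2, the bile acid-responsive repressor SHP, was at 4.65 naive and 69.4 CS CPM, 14.9-fold higher (8.7 to 27.5), and at 1.38 and 5.02 CPM in the perfused libraries, so it was high in CS alone. Slc25a25, a mitochondrial carrier, was at 19.2 and 79.8 CPM (4.15-fold) and at 11.7 and 9.73 CPM in the perfused libraries. Depp1, a FOXO target, was at 15.2 and 107 CPM in the naive and CS libraries and higher still in the perfused ones, at 492 and 757. Tsc22d1 was at 43.1 and 244 CPM, Xiap, an inhibitor of caspases, at 3.41 and 24.3, and Slc25a4, an ADP/ATP carrier, at 2.79 and 27.2. Tagln2 was at 22.3 and 96.6 CPM. Immediate early genes were at least 2-fold higher for 10 of 16 measured, with Fos at 38.8 and 245 CPM and Jun at 66.7 and 330. Of the 16, 11 were under 5% of their level in another CS cell set, as were all 5 MHC class II genes (5 of 5 higher). The glucocorticoid-response list had 5 of 7 higher and a median of 1.3, and 2 of the 7 were under 5% of their level in another cell set. Over all measured hepatocyte genes 10.6% were higher, with a median of 0.26.

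**Figure D5:**
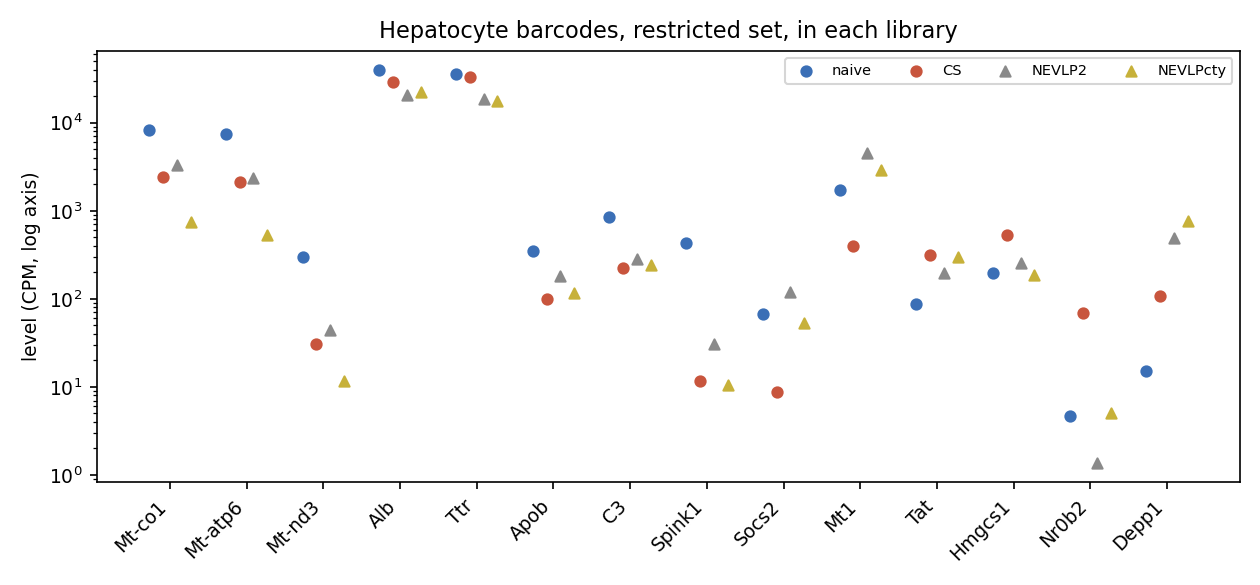
CPM (log axis) of 14 genes in restricted hepatocyte barcodes of each of the 4 libraries. Mt-co1, Mt-atp6 and Mt-nd3 were highest in naive, Nr0b2 was highest in CS at 69.4 CPM, and Alb and Ttr differed by less than 2-fold between naive and CS.

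The 5 mitotic genes counted above as lower in CS hepatocytes alone were detected together in few naive barcodes. Cdk1, Cdc20, Pttg1, Cdca3 and Cenpw, genes of mitotic entry and chromosome segregation, were at 20.5, 25.7, 20.5, 13.3 and 13.3 CPM in naive and had no CS UMI. Against the floor of 3 counts, these were at least 11.8-fold, 14.8-fold, 11.8-fold, 7.68-fold and 7.68-fold lower. At least 2 of the 5 were present in 30 of 927 naive barcodes (3.24%, exact interval 2.19% to 4.59%), 6 of 1463 in NEVLP2 and 0 of 867 in NEVLPcty, where 3 counts would be a share of 0.346%. The 5 were chosen for their low CS level and had no CS UMI, which fixes the CS count at 0, so no CS share is given. CS barcodes had a median of 2061 UMIs. The 30 naive barcodes had Alb at 32800 CPM, against 39700 in the other 897, and a median of 5488 UMIs against 2418. Haemoglobin was at 65.9 CPM in the 30 and 2360 in the others. Only 2 of the 897 others, and 0 of the 30, had at least 10 haemoglobin UMIs. Erythroid barcodes of the same library had Cdk1 at 3.32 CPM.

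In the added B set the immediate early list was lower in CS. Of 17 measured, 5 were at least 2-fold lower and 0 higher, with a median of -0.82 (-0.28 before the restriction). Among all measured B genes 3.38% were lower and 3.38% higher. Junb, an AP-1 subunit, was at 1740 naive and 507 CS CPM (3.44-fold, 3.13 to 3.77), Egr1 at 272 and 93.7, and Zfp36, which destabilises cytokine mRNAs, at 715 and 338. The apoptosis and p53 list had 3 of 11 lower, 0 higher and a median of -0.93, with the p53 targets Mdm2 at 107 and 45.3 CPM and Pmaip1 at 60.0 and 26.4. The BH3-only gene Bcl2l11 was at 35.5 and 18.1 CPM, within 2-fold. Dusp2, a phosphatase of activated lymphocytes, was at 99.2 and 9.82 CPM (10.1-fold, 5.59 to 19.8), with 24.5 and 308 CPM in the perfused libraries. Jchain, the joining chain of secreted immunoglobulin, was at 23.3 and 176 CPM (7.56-fold, 4.73 to 12.8), in 9 naive and 17 CS barcodes. Ighm was at 6780 and 18900 CPM, but it helped to choose the set. Summed Kupffer markers were at 25.7 naive and 289 CS CPM in these barcodes, and their part in the B results was not tested. Naive B barcodes held 9880 haemoglobin UMIs in all, and 1 barcode of the 109 had at least 10 of them. Without it, the immediate early median was -0.86 and the apoptosis median -0.91.

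Lists tied to cold and to general stress had medians between -0.47 and 0.37. The cold-inducible RNA-binding proteins had a median of -0.20 in Kupffer, 0.01 in NK, 0.28 in dendritic, 0.37 in hepatocyte and 0.05 in B barcodes, with no member past 2-fold. Rbm3 was at 299 naive and 332 CS CPM and Cirbp at 86.8 and 59.1 in Kupffer barcodes, while Cirbp was at 13.4 and 20.1 CPM in the perfused ones. Heat shock genes had medians of -0.03, -0.16, -0.15, 0.16 and -0.22 in the same order of groups, and unfolded protein and integrated stress genes -0.22, -0.31, -0.22, 0.01 and -0.47. In B barcodes 3 of 16 measured members of the latter list were at least 2-fold lower and 0 higher, against 3.38% lower over all genes. They were Atf4, the transcription factor of the integrated stress response, at 491 naive and 214 CS CPM, its target Ddit3 at 102 and 40.8, and the chaperone gene Dnajb9 at 190 and 90.6. Glycolysis and hypoxia genes had 0.19, 0.02, -0.11, 0.06 and 0.26, and antioxidant and iron genes 0.05, 0.1, -0.12, 0.13 and 0.21. Proteasome subunits had 0.2, 0.02, 0.07, 0.58 and 0.24, and MHC class I and peptide loading genes 0.24, 0.11, 0.24, 0.38 and 0.13. The 8 genes chosen earlier as lower in CS T cells of these libraries had medians of -1.42, -1.36, -1.47, -0.88 and -1.25, which is no independent evidence because all groups come from the same 2 libraries.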

How the data were processed

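Single-cell RNA was measured in 4 rat liver libraries, 1 per condition. The deposited counts are raw UMI counts per gene and barcode, listed by the authors as filtered matrices of 22250 features (22118 symbols, repeats summed). Cell Ranger is given as 2.1.1 per the submitters' processing notes and 6.0.0 per the file headers, and no genome build was given. Libraries held 25609611 naive, 67431270 CS, 65893218 NEVLP2 and 72271060 NEVLPcty UMIs. UMIs were summed per group and divided by the group total (CPM). Ratios carry exact 95% conditional binomial intervals, which cover counting error only. A library at 0 was set to 3 counts. No doublet caller was run, and barcodes positive for 2 groups were left out.

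Shared genes passed 2-fold the same way in all 4 groups. Genes particular to 1 group passed 4-fold there, with the nearest interval bound past 2-fold, and stayed under 2-fold elsewhere. They were measured in at least 2 other groups, with an interval that overlapped none of theirs. Genes were named by rank. For shared genes these were the 12 each way with the largest difference in the group where the gene differed least. Per group, 6 each way and 5 particular were ranked by the nearest interval bound. Genes named by rank needed a UMI in at least 10 barcodes, at most 20% of UMIs from 1 barcode, and per group at least 5% of their level in any other cell set. List members past 2-fold or among the 4 with most UMIs could also be named. Other named genes were chosen after their values were seen. Members and the 28 gene lists were chosen with earlier results of these data known. The B set, the restricted set and the Clec4f minimum of 6 were chosen after seeing the data, and 4 groups replaced the planned 5 because Cd79a was not usable. The scripts (numpy 2.4.6 and scipy 1.17.1 under Python 3.11.15) were tested on simulated data. Results were recomputed under 10 other settings and 2 added after seeing the data.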

Additional observations from a re-analysis of the deposited data

Results flagged for a closer look

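For 8 genes the log2 ratio of CS over naive lay on opposite sides in 2 groups, each past 2-fold with an interval clear of no difference, by the rule and in the restricted set. The search covered every pair of the 4 groups. How many genes were measured in both groups of a pair was not counted, while 4608 were measured in all 4 groups of the restricted set. The difference between groups was not tested, and this criterion was adopted after a stricter one, with both intervals past 2-fold, gave 0 genes. AABR07006142.1 was at 1.26 in dendritic and -1.2 in Kupffer barcodes. Exosc1, an RNA exosome component, was at 1.9 in hepatocyte and -1.99 in dendritic barcodes. Fn1 was at 4.48 in Kupffer and -2.04 in hepatocyte barcodes, where its naive level was 176 CPM. Its Kupffer difference was much smaller by the rule, as given above, and was not measured with at least 6 Clec4f UMIs. Gpr18, a lymphoid receptor, was at 1.04 in dendritic and -1.24 in Kupffer barcodes. Osgin1, an oxidative stress gene, was at 1.44 in NK and -2.41 in hepatocyte barcodes, with 394 and 435 CPM in perfused hepatocytes. Pacsin1 was at 1.07 in dendritic and -1.09 in Kupffer barcodes. Pck2, mitochondrial PEP carboxykinase, was at 2.37 in NK and -1.06 in dendritic barcodes. Ptprf, a receptor phosphatase, was at 1.22 in dendritic and -1.48 in hepatocyte barcodes.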

How the results depend on the processing

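The counts below are by the rule unless the restriction is named, with Kupffer, NK, dendritic and hepatocyte in that order where 4 values follow each other. The reported rule counts were 1290, 888, 386 and 1973 genes past 2-fold upward in CS, 252, 163, 257 and 290 lower, 13, 11, 1 and 176 particular to a group, and 114 higher and 28 lower in all 4. Thinning every barcode to 1000 UMIs gave 230, 249, 62 and 654 higher, 134, 108, 62 and 148 lower, 1, 7, 0 and 23 particular, and 9 higher and 9 lower in all. It left out 41 naive and 222 CS Kupffer barcodes, 1 and 20 NK, and 72 and 68 hepatocyte barcodes. A minimum expectation of 30 UMIs gave 647, 325, 136 and 900 higher, 150, 81, 110 and 156 lower, 5 particular to NK, 0 to dendritic and 79 to hepatocyte, and 37 higher and 18 lower in all. With no filter on low counts there were 2253, 2013, 987 and 3720 higher, 972, 491, 771 and 630 lower, 0 particular to dendritic, and 269 higher in all. Another setting required at least 2 marker UMIs per barcode, or all 4 rule genes for hepatocyte barcodes. It gave 534 higher and 164 lower in Kupffer, 894 and 189 in hepatocyte, 4, 22, 0 and 91 particular, and 53 higher in all. Under the same setting the NK effector list in Kupffer barcodes turned from a median log2 of 1.01 to -0.39, and the cause was not tested. Centring on the group median gave 1163 higher in hepatocyte barcodes, 438 lower in Kupffer, 271 in NK and 656 in hepatocyte, 20 particular to Kupffer, and 46 lower in all. The restricted set, chosen after seeing the data, gave 252, 417, 256 and 632 higher, 6, 0 and 66 particular to Kupffer, dendritic and hepatocyte, and 17 higher in all. Restricted and centred, there were 206, 321, 252 and 401 higher, 466 lower in hepatocyte, 8 and 65 particular to Kupffer and hepatocyte, and 17 higher in all. Without the top 1% of barcodes by UMIs, 22 genes were particular to Kupffer and 0 to dendritic, and with at most 10% mitochondrial UMIs 0 were particular to dendritic. Fewer genes or UMIs enter under thinning, the higher minimum and the restriction.

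Over the alternatives, 2200 values of single named genes stayed within the spread set for them and 315 did not. Of list medians 1323 did, 163 did not and 1 reversed. The starting values were those of the rule set. With the minimum of 30 UMIs and with no filter, single-gene ratios could not change, so their 177 and 239 values within the spread show nothing. Under thinning, 41 single-gene values stayed within the spread and 58 did not, and genes no longer measured were not counted. No paired analysis was possible because each condition has 1 library, and leaving out a library was not done for the same reason. Depth limits genes of a few UMIs, such as Il6 in CS Kupffer barcodes and the unseen mitotic genes.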
